A study of Homo sapiens and Mus musculus with 4 samples.

Results

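Death receptors, their ligands and the initiator caspases they engage were followed as 17 genes, 9 human and 8 mouse, out of 60736 genes in the table, 32738 human and 27998 mouse. The human genes were FAS, FASLG, TNFSF10, TNFRSF10B, FADD, CASP8, CASP10, CFLAR and TRADD, and the mouse genes were those of the same name, with Fasl for FASLG. They were chosen by name, with earlier results of these data known. No mouse gene named Casp10 stood in the annotation used here, so that CASP10 was read in the human lines alone.

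Bulk RNA sequencing covered 4 established lymphocyte lines, with no treatment stated, as references for single-cell methods. Jurkat and TALL104 are lines of human T-cell leukaemia, and the study describes them as CD4+ and CD8+. The TALL104 culture medium held IL-2, which is not stated for the other lines. EL4 comes from a T-cell lymphoma of the mouse, described as CD4+, and IVA12 is a B-lineage hybridoma of mouse, a fusion of an antibody-producing cell with a myeloma cell. Each line gave 1 library, so line, culture and library cannot be told apart, and no test was made.

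Death receptors are members of the TNF receptor family whose cytoplasmic part carries a death domain. When FAS binds its ligand, or when the receptor encoded by TNFRSF10B binds TRAIL (the product of TNFSF10), the adaptor FADD recruits the initiator caspases CASP8 and CASP10, which then cleave each other and the executioner caspases. CFLAR encodes FLIP, a relative of these caspases that occupies the same complex and limits their activation, and TRADD is the adaptor of TNF receptor 1. Cytotoxic T cells use FAS ligand and TRAIL to kill target cells, and activated T cells are themselves removed through FAS.

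The libraries held between 25286728 and 34783047 reads, recovered from the steps between the FPKM values. FPKM divides the reads of a gene by its length in kilobases and by the size of the library, so levels of different genes are compared per length. The intervals given with a level or ratio are 95% intervals of the counting of reads, and they leave out differences between cultures. Orders that run over both species set human genes beside mouse genes of other lengths. Species, annotation and library cannot be told apart in such orders, and the counting intervals do not cover those differences. All 6 T-lineage markers (CD3D, CD3E, CD3G, CD2, CD5 and LCK) reached 1 FPKM in Jurkat, TALL104 and EL4, against 2 of 6 in IVA12, where Cd2 and Cd3g did. Of 7 B and plasma-cell markers, 5 did so in IVA12, led by Jchain at 1289 FPKM, while Cd79a had 0.0543 FPKM, and 0 of 7 did in EL4. In the human lines 3 of 7 did in TALL104 and 2 of 7 in Jurkat. Mitochondrially encoded genes held 14.9% of the human FPKM in Jurkat and 20.6% in TALL104, and 5.04% and 4.79% of the mouse FPKM in EL4 and IVA12.

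TALL104 held most of the 9 human genes at higher levels than Jurkat. On the scale of FPKM + 1, 8 of the 9 human genes were more than 1.5-fold higher in TALL104 and 0 were higher in Jurkat, and FADD lay between the thresholds. Of all human genes, 11.4% were past 1.5-fold toward TALL104 and 13.8% toward Jurkat, and of those at 1 FPKM or more in either line, 28.4% and 34.2% were. The median log2 ratio of TALL104 over Jurkat was 1.33 over the 9 genes. It was -0.10 over the 12214 human genes at 1 FPKM or more in either line, a set that holds all 9. In bulk libraries, more RNA per cell and more cells expressing a gene cannot be told apart.

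**Figure D1:**
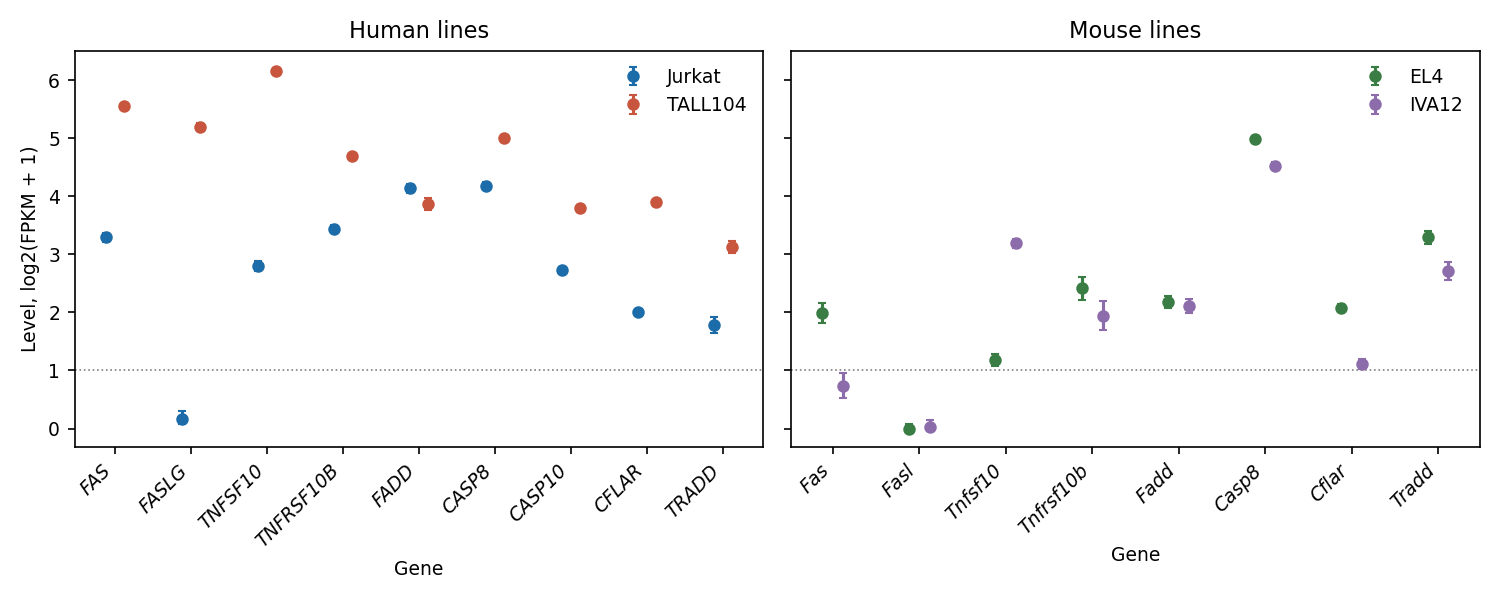
Level of each gene in its own species' lines, as log2(FPKM + 1) with the 95% counting interval; the dotted line marks 1 FPKM, and each point is 1 library. FASLG stands near the bottom in Jurkat (0.122 FPKM) and at 35.6 FPKM in TALL104, and Fasl lies at the bottom in both mouse lines.

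In the mouse pair fewer of the genes were past the threshold. Fas and Cflar were more than 1.5-fold higher in EL4, 2 of 8 genes against 9.75% of all mouse genes and 23.8% of those at 1 FPKM or more in either line. The count toward EL4 is near the share over expressed mouse genes. Tnfsf10 was past 1.5-fold toward IVA12, 1 of 8 against 11.2% and 26.5%. The other 5 genes lay between the thresholds. The median log2 ratio of EL4 over IVA12 was 0.47 over the 8 genes, with Fasl below 1 FPKM in both lines. Over the 10801 mouse genes at 1 FPKM or more in either line, the median was -0.04. With a pseudocount of 0.1 in place of 1, Tnfrsf10b and Tradd were also past the threshold toward EL4.

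Detection at 1 FPKM was reached by 8 of 9 genes in Jurkat and 9 of 9 in TALL104, against 33.2% and 33.1% of all human genes. It was reached by 7 of 8 in EL4 and 6 of 8 in IVA12, against 34.3% and 35.0% of all mouse genes. FASLG in Jurkat, Fasl in both mouse lines and Fas in IVA12 were the values below 1 FPKM. Summed over the genes, TALL104 held 257 FPKM and Jurkat 69.6, while the mouse lines held 54.9 (EL4) and 43.6 (IVA12).

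**Figure D2:**
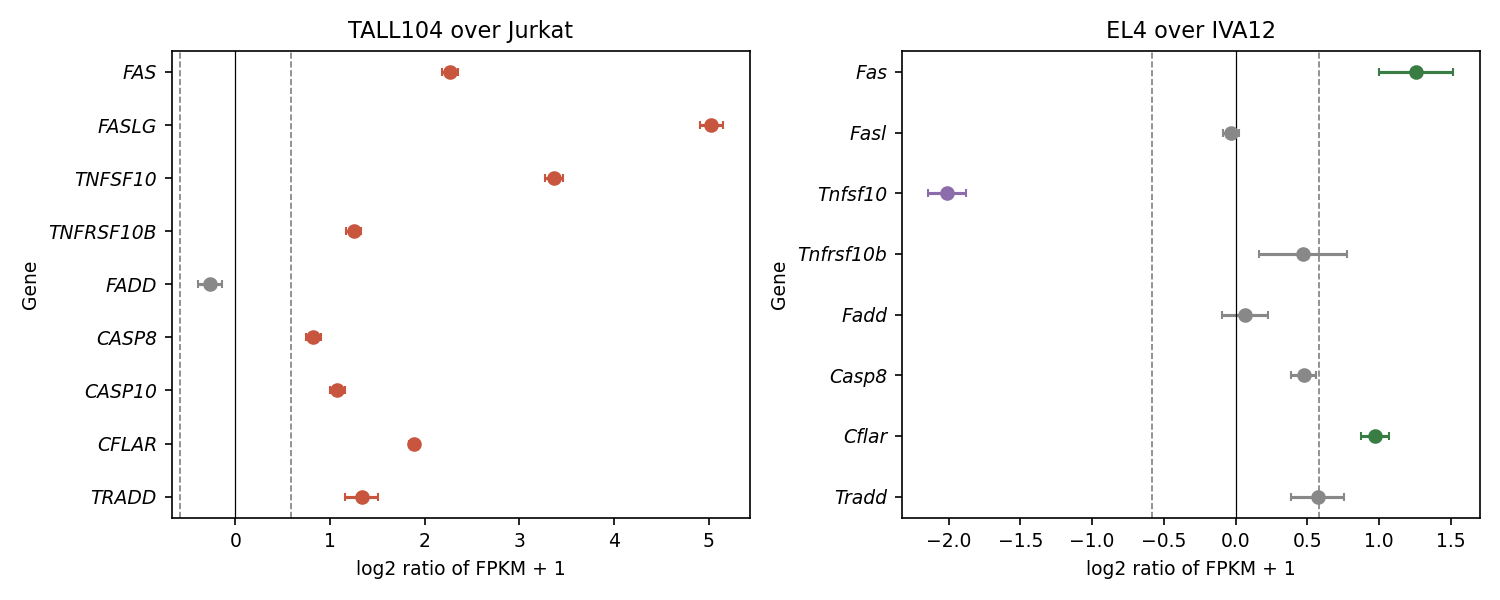
log2 ratio of FPKM + 1 for each gene, TALL104 over Jurkat on the left and EL4 over IVA12 on the right, with bars of 1.96 counting SDs; dashed lines mark 1.5-fold, and grey points lie between them. All human genes but FADD lie right of the threshold, with FASLG farthest at 5.03, and in mouse Tnfsf10 lies alone on the left at -2.01.

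Among the 17 genes a ligand had the largest ratio in each pair of lines, FASLG in human and Tnfsf10 in mouse. FASLG (ENSG00000117560, hg19 chromosome 1, 172628243 to 172636016) encodes FAS ligand, and reached 0.122 FPKM (0.0525 to 0.240) in Jurkat against 35.6 (34.0 to 37.2) in TALL104. The Jurkat value rested on 8 reads, against 1909 reads in TALL104, and the FPKM ratio was 293 (interval 148 to 679). Its mouse counterpart Fasl (ENSMUSG00000000817, mm10 chromosome 1, 161780689 to 161788495) had 1 read in IVA12, or 0.0204 FPKM, and EL4 listed it at 0. Both mouse values lie below the 3 reads that a count of 0 allows, 0.0482 FPKM in EL4 and 0.0612 in IVA12, so Fasl was not detectable at this depth and no ratio is given. Of the 4 lines, TALL104 alone held FAS ligand messenger RNA at 1 FPKM or more, and the intervals of Jurkat, IVA12 and EL4 overlapped from each to the next.

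TNFSF10 (ENSG00000121858, hg19 chromosome 3, 172223298 to 172241265), the TRAIL gene, reached 5.97 FPKM (5.54 to 6.42) in Jurkat against 70.7 (69.0 to 72.3) in TALL104. The ratio was 11.8 (11.0 to 12.8). It was the highest of the 9 genes in TALL104, above 96.3% of the human genes detected there. In the mouse lines Tnfsf10 (ENSMUSG00000039304, mm10 chromosome 3, 27317028 to 27342427) reached 1.26 FPKM (1.10 to 1.45) in EL4 against 8.13 (7.66 to 8.63) in IVA12. The FPKM ratio of IVA12 over EL4 was 6.43 (5.55 to 7.49), and in order of level TALL104 stood above IVA12, Jurkat and EL4 with no overlap between neighbouring intervals.

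The ligand promoters are shown because the 2 ligands differed most between the human lines. RefSeq promoters were matched for 6 of the 9 human genes. The sequences are the 250 bases before the start (RefSeq, GRCh38, read on the gene's strand), FASLG from the plus strand of chr1:172658853-172659102 and TNFSF10 from the minus strand of chr3:172523431-172523680. Capitals mark GGAAA on either strand, the core that NFAT proteins bind, and TATAAA, the core of the TATA box.
FASLG: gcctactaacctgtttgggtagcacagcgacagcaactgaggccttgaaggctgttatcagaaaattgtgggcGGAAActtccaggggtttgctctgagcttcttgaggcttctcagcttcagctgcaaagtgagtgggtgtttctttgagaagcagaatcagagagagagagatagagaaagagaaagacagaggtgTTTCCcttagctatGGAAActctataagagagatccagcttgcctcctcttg
TNFSF10: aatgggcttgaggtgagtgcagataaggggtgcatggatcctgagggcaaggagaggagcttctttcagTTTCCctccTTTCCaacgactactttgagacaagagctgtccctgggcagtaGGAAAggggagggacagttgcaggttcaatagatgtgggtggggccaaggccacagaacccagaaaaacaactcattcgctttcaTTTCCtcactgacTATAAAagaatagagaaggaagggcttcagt
These motifs were picked after the sequences were read. GGAAA occurred 3 times before FASLG and 4 times before TNFSF10, and 55.6% of the 35116 promoters in the table hold it at least once in a window of this length. The share of promoters with as many as 3 or 4 was not computed. TATAAA occurred once before TNFSF10 and not before FASLG, against 10.7% of all promoters. GGGCGG, which SP1 binds and which overlaps the first GGAAA, occurred once before FASLG and not before TNFSF10, against 42.6%. TTCNNNGAA, the form bound by STAT proteins, occurred before neither and is held by 6.57%. These are matches of letters on both strands, not sites of binding.

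Both receptors were past 1.5-fold toward TALL104 as well. FAS (ENSG00000026103, hg19 chromosome 10, 90750414 to 90775542), the receptor of FAS ligand, reached 8.81 FPKM (8.29 to 9.34) in Jurkat against 46.1 (44.8 to 47.5) in TALL104, a ratio of 5.24 (4.90 to 5.60). It overlaps ACTA2 on the opposite strand over 380 exonic bases, and ACTA2 had 0.693 FPKM in Jurkat and 4.81 in TALL104. Mouse Fas (ENSMUSG00000024778, mm10 chromosome 19, 34290666 to 34327772) reached 2.97 FPKM (2.54 to 3.45) in EL4 against 0.659 (0.444 to 0.940) in IVA12, a ratio of 4.51 (3.05 to 6.89). Over the 4 lines the FAS level descended in the order TALL104, Jurkat, EL4, IVA12, with no overlap between neighbours. The recovered gene length was 3562 bases in human and 1801 in mouse, so the step between species is not read as a difference of lines.

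TNFRSF10B (ENSG00000120889, hg19 chromosome 8, 22877646 to 22926544), a receptor of TRAIL, reached 9.88 FPKM (9.43 to 10.4) in Jurkat against 24.9 (24.1 to 25.7) in TALL104, a ratio of 2.52 (2.38 to 2.67). It belongs to a family of similar receptor genes, and how reads with several alignments were counted is not stated. It also shares 377 exonic bases with RHOBTB2 on the opposite strand, which had 2.28 FPKM in Jurkat and 3.35 in TALL104. Tnfrsf10b (ENSMUSG00000022074, mm10 chromosome 14, 69767472 to 69784411) reached 4.33 FPKM (3.65 to 5.08) in EL4 against 2.84 (2.24 to 3.56) in IVA12. The mouse FPKM ratio of 1.52 (1.15 to 2.03) carried a wide interval, from 147 recovered reads in EL4 and 76 in IVA12. These reads are minimum values, from a recovered length of 1057 bases against 5451 annotated, so the true interval may be narrower.

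Ligand and receptor messenger RNA were set side by side within each library. FASLG stood at 0.772 of the level of FAS in TALL104 (0.731 to 0.814), per length, and at 0.0138 in Jurkat (0.00594 to 0.0273). TNFSF10 stood at 2.84 times the level of TNFRSF10B in TALL104 (2.73 to 2.96) and at 0.604 in Jurkat (0.553 to 0.659). Per length, Tnfsf10 stood at 2.86 times the level of Tnfrsf10b in IVA12 (2.27 to 3.66) and at 0.292 in EL4 (0.236 to 0.363). The direction in EL4 turned with the scale, since the ratio of recovered reads there was 1.46 (1.17 to 1.81). The length recovered for Tnfrsf10b, 1057 bases against 5451 annotated, leaves its reads as a minimum, so neither gene is placed above the other in EL4.

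Of the adaptors, FADD differed least between the human lines and TRADD was past 1.5-fold toward TALL104. FADD (ENSG00000168040, hg19 chromosome 11, 70049402 to 70053496), which links the receptors to the caspases, was the one human gene with a lower level in TALL104. It reached 16.6 FPKM (15.6 to 17.6) in Jurkat against 13.6 (12.6 to 14.6) in TALL104, a TALL104 over Jurkat ratio of 0.821 (0.746 to 0.904). An antisense gene (ENSG00000254721) shares 59.2% of the FADD exon bases, and its level was 0 in TALL104 and 0.0284 FPKM in Jurkat. Fadd (ENSMUSG00000031077, mm10 chromosome 7, 144577318 to 144582463) reached 3.53 FPKM (3.21 to 3.88) in EL4 against 3.33 (2.98 to 3.71) in IVA12, with overlapping intervals. Both human lines stood above both mouse lines for this gene, a contrast in which species, annotation and library cannot be told apart.

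TRADD (ENSG00000102871, hg19 chromosome 16, 67188088 to 67193812) had 2.45 FPKM in Jurkat (2.14 to 2.80), the lowest of the human genes there after FASLG, and 7.71 in TALL104 (7.08 to 8.38). The ratio was 3.14 (2.68 to 3.69), the largest of the adaptors and caspases after that of CFLAR. Tradd (ENSMUSG00000031887, mm10 chromosome 8, 105258286 to 105264609) reached 8.78 FPKM (8.05 to 9.57) in EL4 against 5.57 (4.92 to 6.29) in IVA12. The EL4 value and the TALL104 value overlapped in their intervals, and Jurkat stood lowest of the 4 lines.

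CFLAR, CASP10 and CASP8 lie next to each other and on the same strand. On hg19 chromosome 2, CFLAR (ENSG00000003402) spans 201980877 to 202041410, CASP10 (ENSG00000003400) 202047595 to 202094151 and CASP8 (ENSG00000064012) 202098166 to 202226559, with gaps of 6.18 kb and 4.01 kb. On mm10 chromosome 1, Cflar (ENSMUSG00000026031) spans 58711508 to 58758884 and Casp8 (ENSMUSG00000026029) 58795374 to 58847503, with a gap of 36.5 kb. The gene lengths recovered from the FPKM were 22528 bases for CFLAR, 7598 for CASP10 and 3404 for CASP8, and 12669 for Cflar and 2893 for Casp8.

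**Figure D3:**
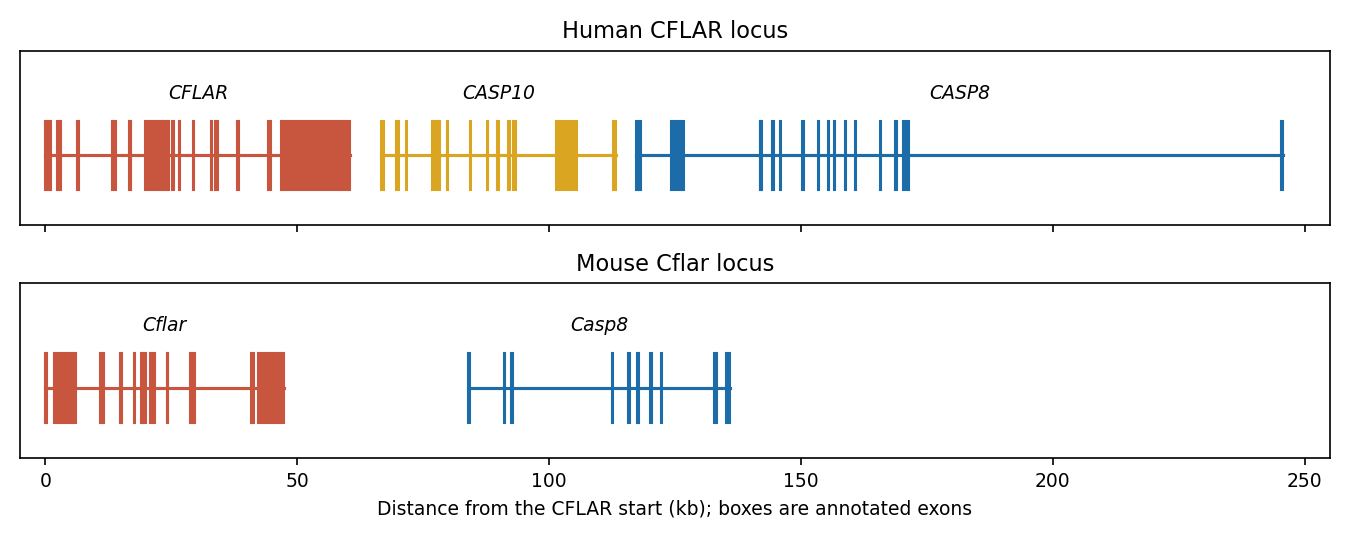
Annotated exons (boxes) and gene spans (lines) of CFLAR, CASP10 and CASP8 in human and of Cflar and Casp8 in mouse, by distance in kb from the CFLAR start. Wide blocks of exon sequence stand at the end of CFLAR and Cflar, and mouse has no gene between Cflar and Casp8 that corresponds to CASP10 in the annotation; the annotation is later than that of the FPKM, and its CASP8 exons sum to 7237 bases.

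All members of this cluster were higher in TALL104, CFLAR by the largest ratio. CASP8, the main initiator caspase of death receptors, reached 17.1 FPKM (16.4 to 17.9) in Jurkat against 31.1 (30.0 to 32.2) in TALL104, a ratio of 1.81 (1.71 to 1.92). CASP10, its close relative, reached 5.61 FPKM (5.33 to 5.90) in Jurkat against 12.9 (12.4 to 13.4) in TALL104, a ratio of 2.30 (2.16 to 2.46). CFLAR reached 3.04 FPKM (2.92 to 3.17) in Jurkat against 13.9 (13.6 to 14.2) in TALL104, a ratio of 4.58 (4.37 to 4.79). The intervals of these 3 ratios did not overlap.

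In the mouse lines Casp8 was the highest of the 8 genes, with 30.8 FPKM (29.7 to 31.9) in EL4 against 21.9 (20.8 to 23.0) in IVA12. The ratio of EL4 over IVA12 was 1.41 (1.32 to 1.5). Cflar reached 3.23 FPKM (3.06 to 3.41) in EL4 against 1.16 (1.04 to 1.28) in IVA12, a ratio of 2.79 (2.48 to 3.14). In both pairs the inhibitor differed by a larger ratio than the caspase beside it. CASP8 messenger RNA in TALL104 and EL4 overlapped in their intervals, IVA12 stood below them and Jurkat lowest, while for CFLAR the levels of EL4 and Jurkat overlapped.

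Read as a ratio within each library, CFLAR stood at 0.447 (0.429 to 0.467) of the level of CASP8 in TALL104 and at 0.177 (0.167 to 0.188) in Jurkat. In mouse the ratio of Cflar to Casp8 was 0.105 (0.0981 to 0.112) for EL4 and 0.0529 (0.0471 to 0.0593) for IVA12. These ratios are per length, and they depend on the long exon total of CFLAR. As recovered reads, with no division by length, CFLAR over CASP8 was 1.17 in Jurkat (1.11 to 1.25) and 2.96 in TALL104 (2.84 to 3.09), and Cflar over Casp8 was 0.459 in EL4 and 0.232 in IVA12. The human lengths recovered differ from the annotated ones, 3404 against 7237 bases for CASP8 and 22528 against 22478 for CFLAR, so the reads of either gene may miss a common factor and the human read ratios are not placed above or below 1. Such a factor would be the same in both lines of a species, and the ratio was higher in TALL104 than in Jurkat and higher in EL4 than in IVA12 on both scales. Per length the order was TALL104, Jurkat, EL4 and IVA12, and neighbouring intervals did not overlap, though the gene lengths differ between the species. CASP10 stood at 0.327 of the CASP8 level in Jurkat (0.306 to 0.350) and 0.415 in TALL104 (0.394 to 0.437).

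**Figure D4:**
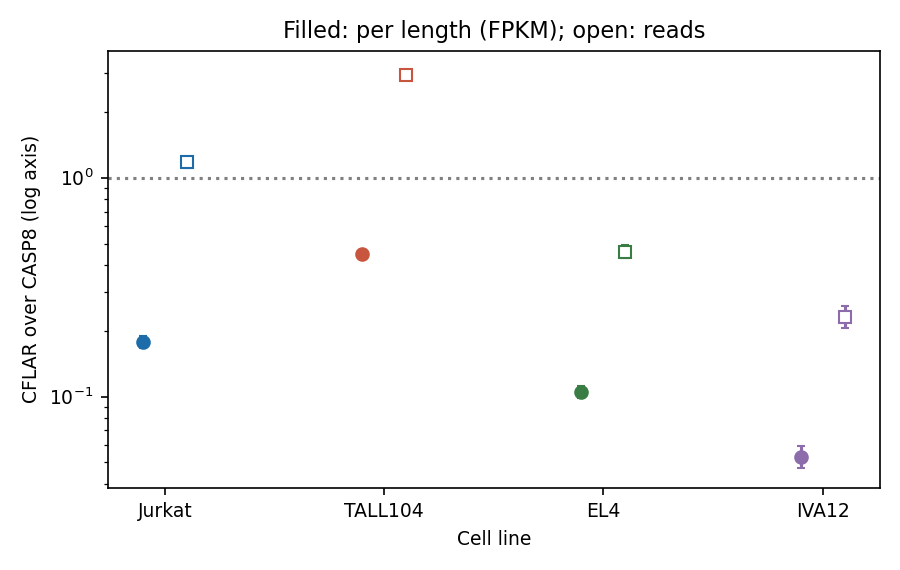
CFLAR over CASP8 in each library (Cflar over Casp8 in EL4 and IVA12), on a log axis, per length as filled circles and as reads as open squares, with 95% counting intervals. TALL104 is highest and IVA12 lowest on both scales, and the circles lie below the dotted line at 1. The human squares lie above it, but rest on reads that may miss a common factor.

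Other genes of the pathway were read from 5 lists. Their counts stand beside the shares of genes at 1 FPKM or more in either line, 28.4% toward TALL104 and 34.2% toward Jurkat in human, and 23.8% toward EL4 and 26.5% toward IVA12 in mouse. Of 8 further death and decoy receptors in human, 4 were past 1.5-fold toward TALL104 and 1 toward Jurkat, with a median log2 ratio of 0.37. Over the 5 of them at 1 FPKM or more in either line the counts were the same and the median was 2.27. TNFRSF25, or DR3, had 0.506 FPKM in Jurkat and 12.2 in TALL104, and TNFRSF21, or DR6, had 11.6 and 0.137. In mouse, 3 of 7 were past the threshold toward EL4 and 0 toward IVA12 (median 0.23). Over the 4 at 1 FPKM or more in either line the counts were the same and the median was 1.92. Tnfrsf21 had 13.0 FPKM in EL4 and 1.72 in IVA12, and Tnfrsf22, a mouse decoy receptor of TRAIL, had 6.48 and 0.769.

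All 4 further ligands of the TNF family were past 1.5-fold toward TALL104 in human, with a median log2 ratio of 4.26. LTB, lymphotoxin beta, had 1.37 FPKM in Jurkat and 217 in TALL104, and TNF had 0.103 and 49.5. The Jurkat TNF value rested on 3 recovered reads, and the ratio was 481 (interval 164 to 2336). The length recovered for TNF was 838 bases, against 1639 for mouse Tnf. Its reads may therefore miss a common factor, and the interval may be too wide. In mouse 1 of 4 was past the threshold in each direction (median 0.29, and -0.31 over those at 1 FPKM or more in either line). Tnf had 5.20 FPKM in EL4 and 1.25 in IVA12, and Ltb had 0.164 and 3.91.

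Of the receptor complex and its ubiquitin enzymes, 5 of 15 human genes measured were past 1.5-fold toward TALL104 and 1 toward Jurkat (median 0.41). CASP8AP2, also on the list, was not analysed here. The count toward TALL104 is near the share over expressed human genes. CYLD, a deubiquitinase, had 5.25 FPKM in Jurkat and 31.4 in TALL104, and the kinase gene RIPK1 had 9.78 and 25.5. In mouse 1 of 16 was past the threshold toward EL4 and 5 toward IVA12 (median -0.19), the latter also near its share over expressed genes. Birc3, a ubiquitin ligase of the TNF receptor complex, had 3.97 FPKM in EL4 and 15.9 in IVA12, and Pea15a was listed at 0 in EL4 and had 2.89 in IVA12.

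Downstream of the initiator caspases, 3 of 10 human genes were past 1.5-fold toward TALL104 and 4 toward Jurkat, both near the shares over expressed human genes. The median of -0.10 became 0.01 when the libraries were scaled by their median ratio. BID, which carries the signal of CASP8 to mitochondria, had 25.9 FPKM in Jurkat and 8.15 in TALL104, and DFFB, a nuclease of apoptotic cells, had 8.34 and 25.1. In mouse 4 of 10 were past the threshold toward EL4 and 0 toward IVA12 (median 0.27). Xiap, a caspase inhibitor, had 14.5 FPKM in EL4 and 6.29 in IVA12.

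Necroptosis is the form of cell death that can follow death receptor signals when CASP8 is inactive. Of its 3 genes, 2 were past 1.5-fold toward TALL104 and 0 toward Jurkat (median 1.64). RIPK3 had 0.856 FPKM in Jurkat and 13.9 in TALL104, and ZBP1 had 0.0106, from 2 reads, and 2.15. MLKL, the membrane-breaking executor, lay between the thresholds and was lower in TALL104, at 5.63 FPKM in Jurkat and 3.84 in TALL104. In mouse 2 were past the threshold toward EL4 and 1 toward IVA12 (median 0.73). Mlkl had 3.81 FPKM in EL4 and 0.0343 in IVA12. The IVA12 value came from 2 reads and lies below the 3 reads that a count of 0 allows, 0.0515 FPKM. Zbp1 had 1.13 FPKM in EL4 and 9.16 in IVA12.

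**Figure D5:**
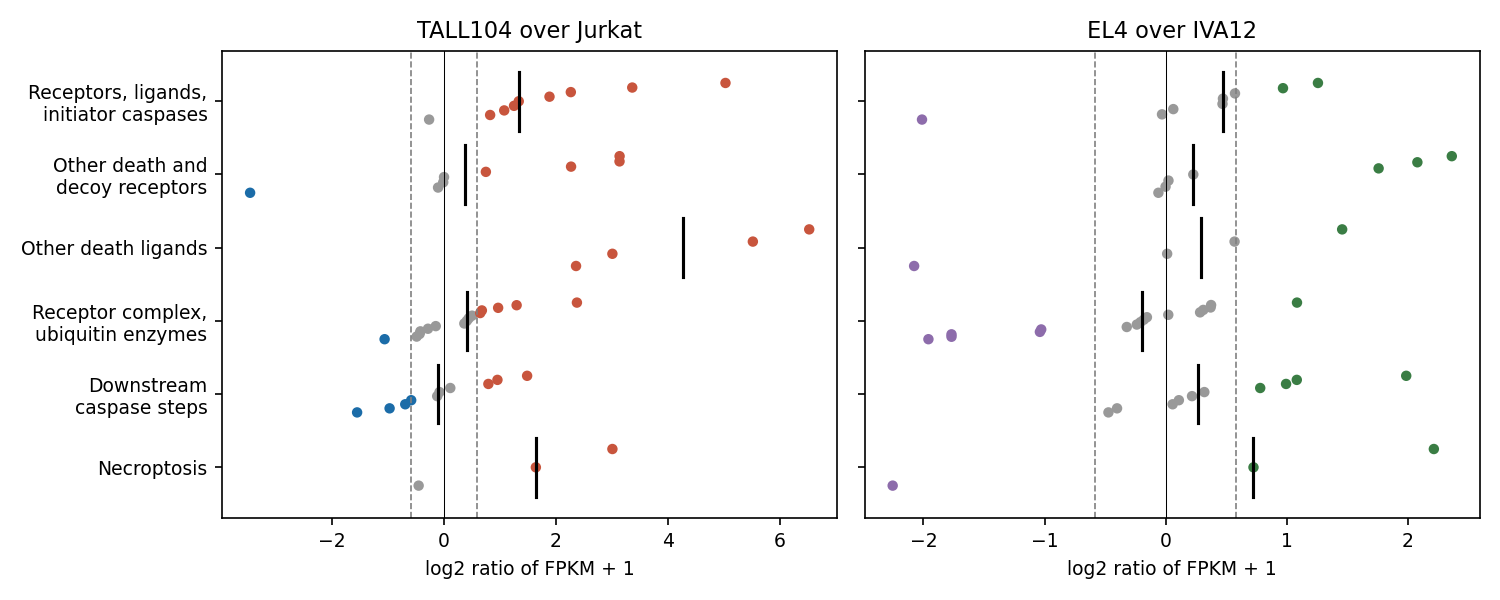
log2 ratio of FPKM + 1 for each gene of the 17 genes and of the 5 pathway lists, TALL104 over Jurkat on the left and EL4 over IVA12 on the right; bars mark list medians, dashed lines 1.5-fold, and grey points lie between them. The human ligands lie farthest right, with a median of 4.26, while the downstream genes lie on both sides of 0.

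Markers of other cell types were read beside these differences. Of 4 NK-cell markers, NCAM1 (22.4 FPKM) and NCR1 (33.5) were at or above 1 FPKM in TALL104 and 0 of 4 in Jurkat, and the list summed to 56.1 FPKM against 0.0474. FCGR3A had 0.0237 FPKM in TALL104 and KLRF1 had 0.112, and KLRF1 was listed at 0 in Jurkat. In both mouse lines 0 of 3 NK-cell markers reached 1 FPKM. Of 5 myeloid markers, ITGAM alone reached 1 FPKM in TALL104, at 1.47, and Lyz2 alone in EL4, at 1.15. The part of these transcripts in the levels of FASLG, TNFSF10 and FAS was not tested.

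By distance in log2(FPKM + 1) over the 4 libraries, among 15552 genes with a shared and unique symbol, the genes nearest to FASLG were NCR1 (0.17), PDE6G (0.18) and TES (0.24). The nearest to TNFSF10 were UBA7 (1.07), CD6 (1.13) and ST3GAL1 (1.15). The nearest to FAS were GIMAP1 (0.88), TGFBR2 (0.91) and NFATC2 (1.01). These distances describe 4 libraries of 2 species and rest on no replicate.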

How the data were processed

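Messenger RNA was measured in 4 cell lines, with 1 stranded poly(A) library per line. Per the study's methods and the labels, the authors aligned paired reads with STAR 2.5.1b to a joint human (hg19) and mouse (mm10) reference from Cell Ranger 1.2.0, counted them per gene with featureCounts 1.6.3, and deposited FPKM, that is, reads scaled by gene length and library size. The strand setting, the gene lengths and the treatment of reads with several alignments are not given in the sources used here. Of the value columns, 0 had no sample.

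Reads were recovered from the FPKM as whole numbers at a relative tolerance of 1e-12, which succeeded for 100% of the genes above 0. Where the annotated length is not a multiple of the recovered one, a common factor may be missed, so reads are minimum values and their intervals the widest. Symbols and positions came from GENCODE 44 mapped to GRCh37 and GENCODE M21. For ratios, 1 was added to each FPKM, so that low genes have ratios nearer to 1, and a gene was called past 1.5-fold. Genes were detected at 1 FPKM. Exact Poisson and Clopper-Pearson 95% intervals cover counting error only, and without replicates no test was made. The calculation was tested on simulated data.

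The genes, the 5 pathway lists and the marker lists were chosen with earlier results of these data known. Beyond the 17 genes, the text names the 2 genes of each list and pair with the largest absolute log2 ratio, and for the 3 genes with the widest range over the libraries their 3 nearest genes by Euclidean distance in log2(FPKM + 1). Some genes that this rule names are not reported here. Alternatives were pseudocounts of 0.1 and 0.01, 3 other scalings, a minimum of 1 FPKM in either line, a 2-fold threshold, and detection above 0, at 0.1 and at 5 FPKM. Promoters came from RefSeq (GRCh38). Python 3.11.15, NumPy 2.4.6, pandas 2.3.3, SciPy 1.17.1 and matplotlib 3.10.9 were used.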

Additional observations from a re-analysis of the deposited data

Results flagged for a closer look

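Human genes have no place in a mouse line, and the reads on them in EL4 and IVA12 lie outside the comparisons. Above the 3 reads that a count of 0 allows stood TNFRSF10B in IVA12, with 4 reads or 0.0307 FPKM, and CFLAR in IVA12, with 5 reads or 0.00878 FPKM. In IVA12 6 of the 9 human genes had reads, against 2 of 9 in EL4, and of the 8 mouse genes 1 had a read in TALL104 and 0 in Jurkat. Over all genes, those of the other species held 0.175% of the FPKM in IVA12 and 0.0379% in EL4. In TALL104 they held 0.0457% and in Jurkat 0.0474%, so such signal was not particular to the genes followed here. No library serves as a control for this signal.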

How the results depend on the processing

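No paired analysis was possible because each line had 1 library, and for the same reason no replicate could be left out. The 8 human genes past 1.5-fold toward TALL104 stayed 8 or 7 in number under every alternative run. The mouse count of 3 was 5 with a pseudocount of 0.1 and 6 with 0.01, where Fasl entered with 1 read in IVA12. At a detection level of 5 FPKM, 2 genes were detected in EL4 and 3 in IVA12. Without division by length, on reads that may miss a common factor in human, CFLAR over CASP8 was 2.96 in TALL104 and 1.17 in Jurkat, with 0.459 and 0.232 for EL4 and IVA12, and over CASP8 and CASP10 summed per length it was 0.134 in Jurkat and 0.316 in TALL104. Of 101 alternative log2 ratios of the 17 genes, 68 stayed within 1.96 counting SDs, 33 moved beyond them and 0 of the called ratios changed sign; the pseudocounts took FASLG to 7.33 and 8.08. Scaling by the median ratio put 4 mouse genes past the threshold, Tradd among them. Of 60 list medians, 13 moved. The human downstream median of -0.10 became 0.01 when scaled by the median ratio, and the mouse ligand median of 0.29 became -0.31 over genes at 1 FPKM or more in either line. With that same minimum, the median of the further receptors went from 0.37 to 2.27 in human and from 0.23 to 1.92 in mouse. The causes were not tested. Genes with few reads, among them Fasl, cannot be ordered at this depth.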

Other observations

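Genes outside the naming rule were chosen after their values were seen, here and, for MLKL and the markers Cd2, Cd79a, FCGR3A and KLRF1, in the text above. The TRAIL receptor gene TNFRSF10A had 0.107 FPKM in Jurkat, from 11 reads, and 8.73 in TALL104, and TNFRSF10D, a decoy receptor of TRAIL, had 0.0244, from 3 reads, and 3.94. Their FPKM ratios were 81.4 (interval 45.2 to 164) and 162 (54.9 to 787). Casp6, an executioner caspase gene, was low in both mouse lines, at 0.262 FPKM in EL4 and 0.666 in IVA12, and its human counterpart CASP6 had 19.3 in Jurkat and 17.7 in TALL104. Species, annotation and library cannot be told apart in that contrast.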
